A study of Homo sapiens with 6 samples.

Results

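The 10 genes of the endoplasmic reticulum folding machinery listed next were followed by symbol through the gene tables of 6 RNA sequencing libraries: HSPA5, HSP90B1, PDIA3, PDIA4, PDIA6, CALR, CANX, DNAJB9, SDF2L1 and the transcription factor gene XBP1. Of these 10 genes, 9 had a line in every table, among 19089 genes in all. HSP90B1 had no line in the 6 tables used here, nor had its relatives HSP90AA1 and HSP90AB1, so its level was not taken as 0 and it was not analysed here. The libraries came from 3 human hepatocellular carcinoma cell lines. Hep3B was kept in MEM with sodium pyruvate and 15% fetal bovine serum, and HCCLM3 and MHCC97H, which descend from a common parental line, in DMEM with 10% serum. All the media contained penicillin, streptomycin and ciprofloxacin. From each line, polyadenylated RNA of the whole cell (mRNA) and polyadenylated RNA attached to translating ribosomes (RNC-mRNA, for ribosome-nascent chain complex) were sequenced, each as 1 library from 3 pooled cultures. The tables are marked by a letter, and A was taken for mRNA and C for RNC-mRNA. No label states this outright, and an exchange would swap the fractions and turn the sign of every ratio between them. No line and fraction had a replicate, and line and medium cannot be told apart between Hep3B and the other lines.

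The endoplasmic reticulum is where secreted and membrane proteins are folded, and a hepatocyte, which exports most of the proteins of blood plasma, loads it heavily. HSPA5 (BiP) is the Hsp70 chaperone of the lumen and also holds the stress sensors IRE1, PERK and ATF6 inactive. HSP90B1 (GRP94) is the Hsp90 of the lumen. When unfolded proteins build up, IRE1 removes a short intron from XBP1 mRNA in the cytoplasm, and the spliced XBP1 protein, together with ATF6, activates chaperone genes. A read count per gene, as deposited, does not tell spliced from unspliced XBP1.

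ATF6 and XBP1 are known to act through a promoter element called ERSE, and its letters are shown here because most of these genes have them close to their start. The motif searched was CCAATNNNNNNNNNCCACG, on both strands, in RefSeq windows (GRCh38.p14) from 250 bases before to 50 bases after each annotated start. The submitters' processing notes name hg19, another build, so the windows were matched by symbol. A window was at hand for 9 of the 10 genes, all but PDIA3. The motif was in a window of 6 of these 9 genes (66.7%), namely HSPA5, HSP90B1, PDIA6, CALR, CANX and XBP1, against 25 of 27305 genes with a window, these 6 included (0.0916%) and 27 of 35116 windows (0.0769%). Because the motif was picked as one that most of these genes hold, the shares describe that choice and test nothing. A match is a run of letters and not a measured binding site. The 250 bases before the start are printed for HSPA5 and XBP1, and short stretches for PDIA6 and CALR, 5′ to 3′ along the gene's strand, with the motif in capitals.
HSPA5, chr9:125241344-125241593, minus strand: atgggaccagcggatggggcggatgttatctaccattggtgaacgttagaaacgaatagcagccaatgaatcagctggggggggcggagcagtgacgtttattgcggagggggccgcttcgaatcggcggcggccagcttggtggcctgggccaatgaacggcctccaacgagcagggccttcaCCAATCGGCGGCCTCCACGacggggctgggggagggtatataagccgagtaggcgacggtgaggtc
XBP1, chr22:28800570-28800819, minus strand: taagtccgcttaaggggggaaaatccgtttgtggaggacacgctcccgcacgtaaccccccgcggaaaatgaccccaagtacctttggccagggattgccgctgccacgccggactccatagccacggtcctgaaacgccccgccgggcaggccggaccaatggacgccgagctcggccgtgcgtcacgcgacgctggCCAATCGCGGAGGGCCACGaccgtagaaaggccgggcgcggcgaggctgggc
PDIA6, chr2:10812838-10812886, minus strand: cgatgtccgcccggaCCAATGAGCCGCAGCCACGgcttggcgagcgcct
CALR, chr19:12938369-12938417, plus strand: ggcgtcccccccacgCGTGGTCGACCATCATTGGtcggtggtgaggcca

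In HSPA5 the first base of the motif lay 66 bases before the start, in XBP1 52, in PDIA6 86 and in CALR 225, where it reads on the opposite strand. CANX has several annotated starts, and the same copy lay 9, 151 or 189 bases before them. A shorter element, ERSE-II (ATTGGNCCACG, both strands), was in the window of 1 of the 9 genes, SDF2L1, 188 bases before the start and on the opposite strand, against 19 of 27305 genes (0.0696%). It is shown for that gene alone.
SDF2L1, chr22:21642099-21642139, plus strand: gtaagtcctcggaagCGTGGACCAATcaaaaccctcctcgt
The XBP1-type element TGACGTGG (both strands) was in a window of 0 of the 9 genes and of 253 of 27305 (0.927%). PDIA4 and DNAJB9 held none of these letters in their windows, which says nothing of the factors themselves.

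The tables held between 119086844 and 147788269 reads per library, and the 9 genes together took 0.391% of them in Hep3B mRNA, 0.360% in Hep3B RNC-mRNA, 0.264% and 0.234% in the HCCLM3 fractions and 0.281% and 0.285% in those of MHCC97H. Levels are RPKM as deposited, which scales reads by the length of the gene model and the library total, and can be compared between genes. Counting error is small at these depths: the lowest count was 1136 reads, for DNAJB9 in HCCLM3 mRNA, and the highest 200182, for CALR in Hep3B RNC-mRNA. Intervals given with the values cover this counting error only, and how much separate cultures vary cannot be read from single pooled libraries. In bulk RNA a lower level can mean fewer cells that express a gene or less RNA in each, which cannot be told apart. The hepatocyte label was checked on 8 markers. In both Hep3B libraries 8 of 8 reached 1 RPKM, against 5 and 4 in the HCCLM3 mRNA and RNC-mRNA and 7 and 4 in those of MHCC97H, where TTR and others were under that level. Of leukocyte markers, CD68 reached it throughout and LYZ in Hep3B alone, while PTPRC and CD3E were below it in every library. Of markers of other cells, it was reached by 1 of 4 for plasma cells (SDC1), up to 2 of 4 for endothelium (PECAM1 and KDR), up to 1 of 5 for fibroblasts and stellate cells, and 0 of 2 for erythroid cells. Of 4 epithelial markers, 4 reached it in both Hep3B libraries and 2 or 3 in the others.

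CALR, which encodes calreticulin, the soluble calcium-binding lectin that holds glycoproteins during folding, was the most abundant of the 9 genes in every library. Its level was 708 RPKM in Hep3B mRNA, 669 in the RNC-mRNA of that line, 449 and 379 in HCCLM3 mRNA and RNC-mRNA, and 422 and 403 in MHCC97H. Both Hep3B libraries lay above the other 4. How many of all genes set Hep3B apart in this way was not counted. The highest CALR value was 1.87 times the lowest, a wider spread than in 33.9% of genes with at least 1 RPKM throughout. CALR ranked 34th among all genes of Hep3B mRNA and 137th in HCCLM3 RNC-mRNA. Its level was 5.34 times that of HSPA5 in Hep3B mRNA, 3.82 in HCCLM3 mRNA and 3.68 in MHCC97H mRNA. Its membrane-anchored relative CANX, calnexin, stood at 100.4 and 93.9 RPKM in Hep3B mRNA and RNC-mRNA, 81.0 and 95.1 in HCCLM3 and 95.7 and 114 in MHCC97H. The CANX values of Hep3B overlapped those of each other line, and the highest was 1.41 times the lowest. Both MHCC97H values lay above both of HCCLM3, but not beyond counting error. The intervals of CANX in MHCC97H mRNA and HCCLM3 RNC-mRNA overlapped (94.9 to 96.5 and 94.3 to 95.9 RPKM).

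HSPA5 was among the steadiest. Its level was 133 RPKM in the mRNA of Hep3B and 113 in its RNC-mRNA, 117 and 95.9 in HCCLM3, and 115 and 121 in MHCC97H. The lines overlapped. The highest value was 1.38 times the lowest, a spread below that of all but 5.95% of the 9662 genes with at least 1 RPKM in all 6 libraries, whose median was 2.20.

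The protein disulfide isomerases make and rearrange disulfide bonds, and PDIA4 varied less between libraries than PDIA3 and PDIA6. PDIA4 (ERp72) stood at 128 and 119 RPKM in Hep3B, 112 and 103 in HCCLM3 and 140 and 137 in MHCC97H, mRNA first, with a spread of 1.36 times. PDIA3 (ERp57), which works with calnexin and calreticulin on glycoproteins, stood at 117 and 91.2 RPKM in Hep3B, 65.1 and 53.9 in HCCLM3 and 83.1 and 83.2 in MHCC97H. It was highest in Hep3B and lowest in HCCLM3 in both fractions. PDIA6 (P5) stood at 59.1 and 65.2 RPKM in Hep3B, 33.2 and 33.7 in HCCLM3 and 37.4 and 43.5 in MHCC97H, again in the order Hep3B, MHCC97H, HCCLM3. PDIA3 overlaps ELL3 in the RefSeq annotation, PDIA6 overlaps ATP6V1C2 and CANX overlaps CBY3, and PDIA3 and HSPA5 have pseudogenes. The sources used here do not say how reads of such copies and overlaps were assigned, so these levels carry that uncertainty.

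The smaller partners of HSPA5 were more abundant in RNC-mRNA than in mRNA in each line. SDF2L1, a lumenal protein found in complexes of HSPA5 and its J-domain partners, stood at 64.6 RPKM in the mRNA and 93.9 in the RNC-mRNA of Hep3B, 66.8 and 79.7 in HCCLM3 and 62.7 and 82.2 in MHCC97H. The 3 mRNA values lay below the 3 RNC-mRNA values without overlap. DNAJB9 (ERdj4), a J-domain co-chaperone that stimulates HSPA5 and restrains IRE1, was the least abundant, at 3.93 and 6.65 RPKM in Hep3B, 3.22 and 4.77 in HCCLM3 and 4.12 and 5.72 in MHCC97H. Its fractions did not overlap either. How many of all genes separate in this way was not counted. Of the genes at 1 RPKM in both fractions, 48.2% were higher in RNC-mRNA in Hep3B, 66.3% in HCCLM3 and 64.1% in MHCC97H.

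XBP1 had the widest spread of the 9. Its level was 84.5 RPKM in the mRNA of Hep3B and 143 in the RNC-mRNA, against 23.8 and 30.3 in HCCLM3 and 32.0 and 40.2 in MHCC97H. Both Hep3B values lay above all those of the other lines. Such separation was not counted over all genes, of which 39.9% differed at least 2-fold between HCCLM3 and Hep3B in mRNA. The highest XBP1 value was 5.98 times the lowest, a wider spread than in 92.5% of the genes with at least 1 RPKM throughout. XBP1 has a pseudogene too. The summed hepatocyte markers were also highest in Hep3B, at 10466 and 17782 RPKM in its mRNA and RNC-mRNA, 38.9 and 34.1 in HCCLM3 and 56.1 and 43.96 in MHCC97H, and the epithelial markers EPCAM and CDH1 were at 143 and 46.0 RPKM in Hep3B mRNA, 0.290 and 1.68 in HCCLM3 and 0.203 and 2.74 in MHCC97H. The summed epithelial list, led by KRT8, was lower in Hep3B, at 1272 and 1251 RPKM against 2019 to 2505 in the other libraries. The part of these markers in the XBP1 difference was not tested. By level, XBP1 came sixth of the 9 genes in Hep3B mRNA, second in Hep3B RNC-mRNA and eighth in the other 4 libraries. Some neighbours in the order of levels did not differ beyond counting error. CANX and SDF2L1 in Hep3B RNC-mRNA (93.9 RPKM each), SDF2L1 and PDIA3 in HCCLM3 mRNA, HSPA5 and CANX in HCCLM3 RNC-mRNA, and PDIA3 and SDF2L1 in MHCC97H RNC-mRNA had overlapping 95% Poisson intervals.

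**Figure D1:**
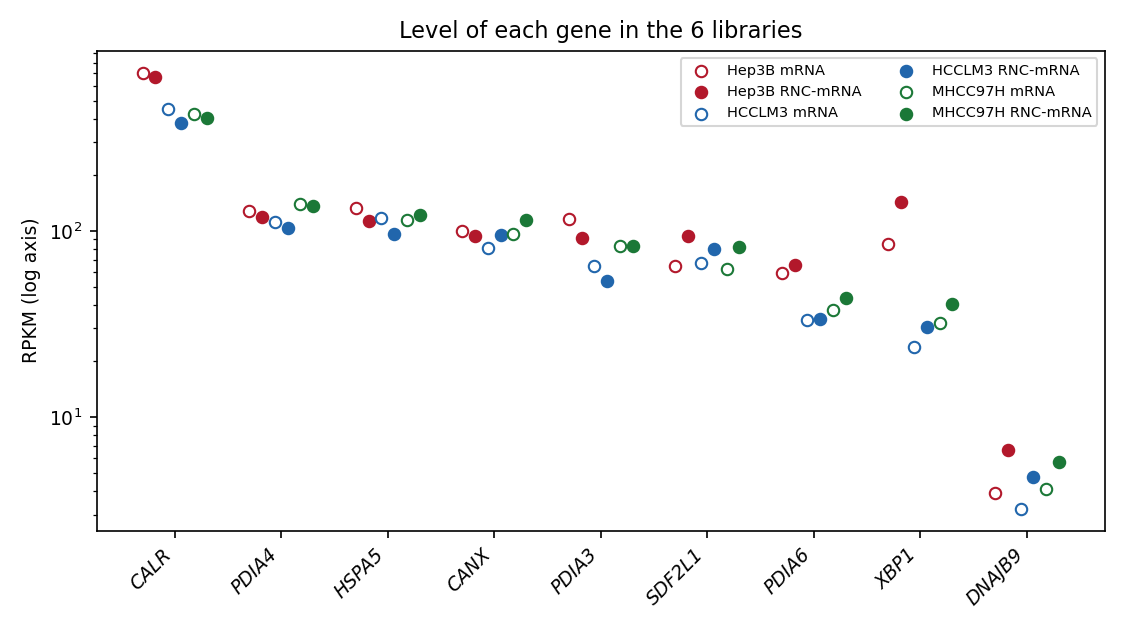
RPKM on a log axis for the 9 genes in each of the 6 libraries, open circles for mRNA and filled circles for RNC-mRNA, coloured by line. CALR lies between 379 and 708 RPKM, DNAJB9 between 3.22 and 6.65, and the Hep3B circles of XBP1 stand apart from those of the other lines.

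The next comparison asked how far the lines differed in these genes, separately in mRNA and in RNC-mRNA. A gene was counted when its (RPKM + 0.1) differed by at least 2-fold and the larger value was 1 RPKM or more, and no test was possible with single libraries. XBP1 was the only gene of the 9 counted against Hep3B as the values were deposited. In mRNA it was 3.54-fold lower in HCCLM3 than in Hep3B (log2 ratio -1.82, 95% counting interval of the plain RPKM ratio -1.87 to -1.79) and 2.64-fold lower in MHCC97H (-1.40, -1.44 to -1.37). In RNC-mRNA the gap was 4.68-fold for HCCLM3 (-2.23) and 3.53-fold for MHCC97H (-1.82). Counts of 1 of 9 in each of these comparisons stand beside 39.9% of all genes for HCCLM3 over Hep3B in mRNA, 37.6% for MHCC97H over Hep3B in mRNA, and 43.2% and 42.6% in RNC-mRNA. The comparisons with Hep3B share its libraries and are not independent of each other.

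Below the 2-fold mark, PDIA3, PDIA6 and CALR were lower in both other lines than in Hep3B, in mRNA and in RNC-mRNA. In mRNA, PDIA6 had log2 ratios of -0.83 in HCCLM3 and -0.66 in MHCC97H, CALR -0.66 and -0.75, and PDIA3 -0.84 and -0.49. In RNC-mRNA they were -0.95 and -0.58 for PDIA6, -0.82 and -0.73 for CALR, and -0.76 and -0.13 for PDIA3. HSPA5 lay close to Hep3B in mRNA, at -0.18 and -0.21. PDIA4 (-0.19 and 0.13), CANX (-0.31 and -0.07), DNAJB9 (-0.28 and 0.07) and SDF2L1 (0.05 and -0.04) lay within 0.31 of 0 in mRNA as well. In RNC-mRNA, DNAJB9 (-0.47 and -0.21) and SDF2L1 (-0.24 and -0.19) were also lower in both lines. HSPA5 (-0.24 and 0.10), PDIA4 (-0.21 and 0.19) and CANX (0.02 and 0.28) were not. Of all genes, 48.8% and 49.6% were above Hep3B in mRNA, and 58.7% and 59.5% in RNC-mRNA. How many were lower in both lines was not counted.

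In mRNA the 9 genes had a median log2 ratio to Hep3B of -0.31 in HCCLM3 and -0.21 in MHCC97H, beside -0.03 and -0.01 for all genes. In RNC-mRNA it was -0.47 and -0.19, where all genes had 0.25 and 0.26. When the RNC-mRNA libraries were rescaled to a median ratio of 0, 3 of the 9 genes rather than 1 were at least 2-fold lower in HCCLM3, namely XBP1, PDIA6 and CALR, and with the upper quartile 2, XBP1 and PDIA6. That rescaling to the median also put HSPA5 and PDIA4 in MHCC97H RNC-mRNA below Hep3B (-0.15 and -0.05, against 0.10 and 0.19 as deposited) and CANX in HCCLM3 RNC-mRNA (-0.22 against 0.02). With the upper quartile HSPA5 came to -0.04 and CANX to -0.13, while PDIA4 stayed above 0.

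HCCLM3 and MHCC97H were closer to each other, with 0 of the 9 genes past 2-fold in mRNA or RNC-mRNA, where 2.56% and 2.95% of all genes were. In RNC-mRNA all 9 genes were lower in HCCLM3 than in MHCC97H, with a median log2 ratio of -0.34, beside -0.01 and 48.8% above 0 for all genes. The widest gaps there were in PDIA3 (-0.63), PDIA4 (-0.41) and XBP1 (-0.41), and the narrowest in SDF2L1 (-0.05). In mRNA, 3 of the 9 were higher in HCCLM3, namely CALR and SDF2L1 (0.09 each) and HSPA5 (0.04), and the median was -0.24 beside -0.01. Neither rescaling turned any of these signs. Rescaling to the median could not have done so, since the median ratio was -0.006 in RNC-mRNA and -0.015 in mRNA, smaller than each ratio of the 9 genes.

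**Figure D2:**
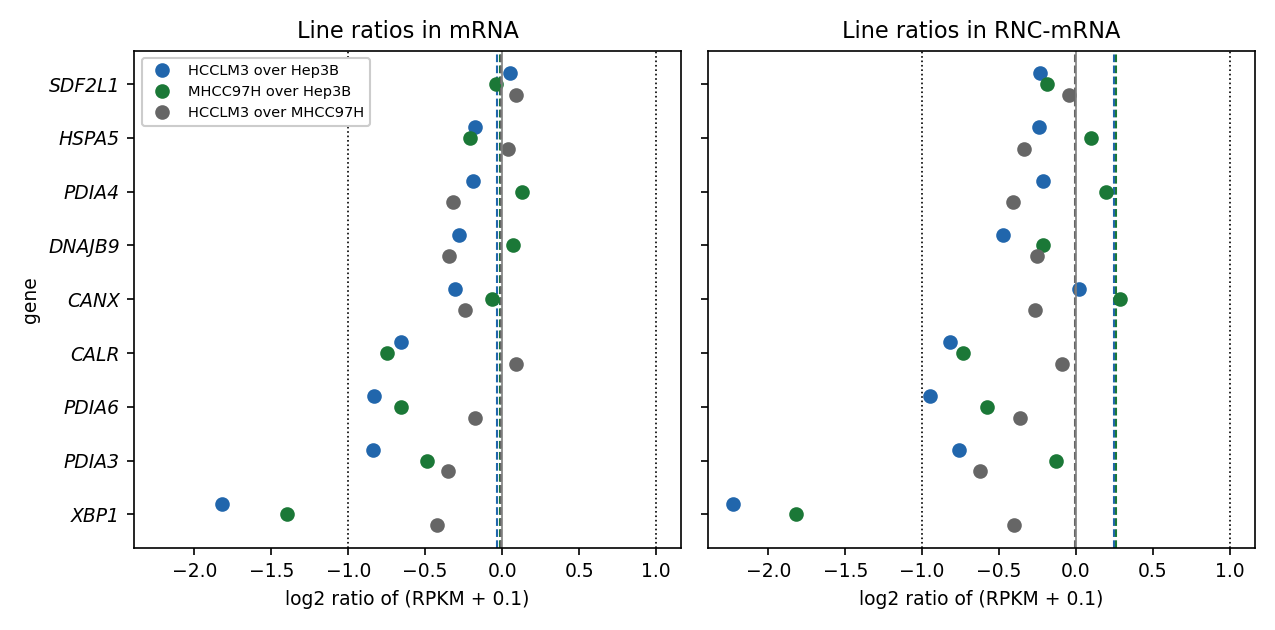
Log2 ratios of (RPKM + 0.1) between lines for the 9 genes, in mRNA on the left and RNC-mRNA on the right, with dashed lines at the median of all genes in the same colours and dotted lines at a 2-fold difference. XBP1 lies beyond the dotted line against Hep3B in both panels, at -1.82 and -1.40 in mRNA and at -2.23 and -1.82 in RNC-mRNA.

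The last comparison asked which of these transcripts were over- or under-represented on ribosomes. The ratio is RNC-mRNA over mRNA within a line, and it is a relative one, since each library is scaled to its own total. XBP1, DNAJB9 and SDF2L1 stood on the ribosome-bound side in all 3 lines, as did PDIA6 with smaller ratios. How many of all genes did so was not counted. DNAJB9 had log2 ratios of 0.75 in Hep3B (counting interval 0.67 to 0.85), 0.55 in HCCLM3 (0.46 to 0.67) and 0.46 in MHCC97H (0.38 to 0.56). XBP1 had 0.75 (0.73 to 0.78), 0.35 (0.30 to 0.39) and 0.33 (0.29 to 0.37), and SDF2L1 had 0.54, 0.25 and 0.39. In Hep3B these lay above 94.4%, 94.6% and 86.4% of the genes measured at 1 RPKM in both fractions, in HCCLM3 above 86.8%, 69.3% and 59.2%, and in MHCC97H above 79.1%, 67.1% and 72.7%. DNAJB9, XBP1 and SDF2L1 stayed above the median of all genes in each line, which was -0.03 in Hep3B, 0.17 in HCCLM3 and 0.16 in MHCC97H. In HCCLM3, SDF2L1 was 0.09 above this median and PDIA6 0.14 below it.

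PDIA3, HSPA5, CALR and PDIA4 stood lower. PDIA3 had -0.35 in Hep3B, -0.27 in HCCLM3 and 0.002 in MHCC97H, and HSPA5 had -0.23, -0.29 and 0.08, of which both MHCC97H values were below 0 when rescaled to the median (-0.16 and -0.08) or to the upper quartile (-0.13 and -0.04). CALR had -0.08, -0.24 and -0.07, and PDIA4 -0.10, -0.12 and -0.03. These 4 genes were below the median of all genes in every line, by 0.05 to 0.46 on the log2 scale. CANX had -0.10, 0.23 and 0.26, and PDIA6 0.14, 0.02 and 0.22, its HCCLM3 value falling below 0 with either rescaling (-0.15 and -0.13). Within a line, 0 of the 9 genes reached a 2-fold ratio in either direction, beside 9.63% of all genes in Hep3B, 3.31% in HCCLM3 and 3.15% in MHCC97H.

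**Figure D3:**
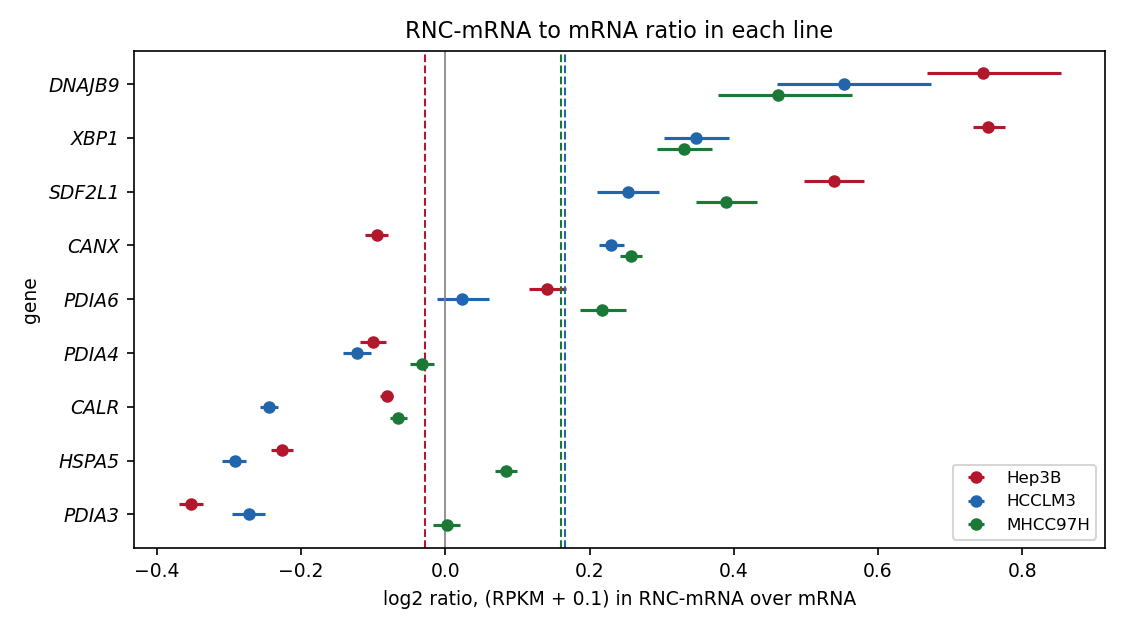
Log2 ratio of (RPKM + 0.1) in RNC-mRNA over mRNA for the 9 genes in each line, with bars for the 95% counting interval of the plain RPKM ratio and dashed lines at the median of all genes in the same colours. DNAJB9, XBP1 and SDF2L1 lie to the right of 0 and of the dashed lines in all 3 lines, and PDIA4, CALR, HSPA5 and PDIA3 to the left of the dashed line of their own colour.

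Over the 3 lines, the ratio was tested on the counts with edgeR's quasi-likelihood test, with the line as a block and Benjamini-Hochberg adjustment over 11905 genes. None of the 9 genes passed at 0.05 (0 higher and 0 lower), beside 0.0672% of all genes higher and 2.65% lower. DESeq2 called 0 of them as well, and 1, DNAJB9, had an unadjusted p under 0.05 in edgeR. Of all 11905 genes, DESeq2 called 1962, and 3345 had an unadjusted p under 0.05 in edgeR. DNAJB9 had a log2 ratio of 0.56 ± 0.17 (SE, adjusted p = 0.131, edgeR), XBP1 0.44 ± 0.18 (adjusted p = 0.208) and SDF2L1 0.36 ± 0.15 (adjusted p = 0.212), each positive in 3 of 3 lines. PDIA3 had -0.25 ± 0.12 (adjusted p = 0.264, edgeR), HSPA5 -0.18 ± 0.14 (adjusted p = 0.439) and CALR -0.17 ± 0.15 (adjusted p = 0.507). PDIA4 at -0.12, CANX at 0.09 and PDIA6 at 0.09 had adjusted p of 0.548, 0.615 and 0.660 in edgeR. PDIA6 was also positive in 3 of 3 lines. With Hep3B left out, which leaves the related lines alone, 3 of the 9 genes were called higher and 4 lower, in a fit that called 3989 genes higher and 3881 lower of 11381. Those higher were DNAJB9 (log2 ratio 0.37, adjusted p = 0.00106, edgeR), XBP1 (0.20, adjusted p = 0.00901) and SDF2L1 (0.18, adjusted p = 0.0209), and those lower were HSPA5, PDIA3, PDIA4 and CALR (-0.22 to -0.30, adjusted p from 0.00118 to 0.0127). The p-values of the fit without Hep3B rest on how alike these related lines were, and not on independent lines. That fit called most of the genes tested, so the 3 and 4 calls are no result about the 9 genes. The direction for the 7 was that of the 3-line fit, which holds the same libraries, so it is no separate support. Leaving out HCCLM3 or MHCC97H gave 0 calls among the 9. A p that misses the threshold does not show that the fractions were equal.

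The wider pathway was followed through 10 lists of 154 genes, of which 146 had a line and 141 were tested. By edgeR 0 of the 141 passed, while 51 had an unadjusted p under 0.05 (38 higher and 13 lower in RNC-mRNA) and DESeq2 called 18 higher and 6 lower. For all genes tested the unadjusted counts were 1537 higher and 1808 lower of 11905, DESeq2 called 662 higher and 1300 lower, and the median log2 ratio was 0.04. Genes of the translocon, signal peptidase and oligosaccharyltransferase, which bring chains into the lumen, cut and glycosylate them, had a median of 0.39, and 13 of 24 had an unadjusted p under 0.05, all higher (DESeq2 called 7 higher). KDEL receptors and retrieval factors had a median of 0.36 over 4 genes (3 and DESeq2 1, higher), and enzymes of disulfide oxidation 0.31 over 9, with 4 higher and 1 lower by unadjusted p and 1 called higher by DESeq2.

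The glycoprotein folding cycle that CALR, CANX and PDIA3 serve was the list with the lowest median, -0.44 over 10 genes, with 5 lower by unadjusted p and 4 called lower by DESeq2. The remaining disulfide isomerases had a median of 0.19 (6 of 13 higher by unadjusted p, 1 by DESeq2), stress sensors and transducers 0.21 (4 higher and 2 lower of 18; DESeq2 2 and 1), other folding factors 0.16 (3 and 3 of 24; DESeq2 2 and 1), degradation factors 0.11 (4 and 0 of 20; DESeq2 3 and 0) and co-chaperones of HSPA5 0.07 (1 and 1 of 10; DESeq2 1 and 0). Cytosolic and mitochondrial relatives of HSPA5 had -0.13 over 9 genes (0 and 1; DESeq2 0 and 0).

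Between lines, the same lists were counted by the 2-fold mark, which 2379 genes passed higher and 2708 lower of 12737 in HCCLM3 over Hep3B mRNA (39.9%). In HCCLM3 over Hep3B mRNA, the glycoprotein cycle had the lowest median log2 ratio, -0.61, with 2 of 10 genes at least 2-fold lower and 1 higher, followed by stress sensors and transducers at -0.47 (4 lower and 2 higher of 18) and HSPA5 co-chaperones at -0.43 (3 lower of 10). These counts are near or below the share of all genes and are no result about the lists. In the mRNA of MHCC97H over Hep3B these medians were -0.47, -0.25 and -0.30. In RNC-mRNA the glycoprotein cycle had -0.65 and -0.54 in HCCLM3 and MHCC97H and the co-chaperones -0.51 and -0.39. Stress sensors and transducers had -0.04 and -0.02, with more genes 2-fold higher than lower (4 and 3, then 4 and 2). All genes leaned the same way in RNC-mRNA, with 3113 higher and 2165 lower of 12212 in HCCLM3. In MHCC97H, 3078 were higher and 2130 lower of 12222. The medians of all genes were 0.25 and 0.26, above those of these lists. Past 2-fold in both lines and both fractions stood AGR2, a disulfide isomerase of mucus-secreting epithelia, at 0.161 RPKM in the mRNA of Hep3B, 95.5 in that of HCCLM3 and 114 in that of MHCC97H. CLGN, a calnexin relative known from testis, stood at 7.91, 0.316 and 0.239 RPKM, and HERPUD1, a membrane protein of the degradation machinery induced by stress, at 22.6, 7.92 and 7.14 RPKM. MLEC, malectin, which binds newly glucosylated proteins, went the other way from CLGN, at 27.2, 97.6 and 99.1 RPKM, as did SSR4, a subunit of the translocon-associated complex, at 33.4, 111 and 104. GPX7, a peroxidase of the lumen, stood at 20.1, 0.0752 and 0.451 RPKM, and CREB3L1, a membrane-bound transcription factor, at 0.202, 4.04 and 4.82. The lists thus held genes on both sides of Hep3B.

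The genes whose pattern over the 6 libraries was most like that of each of the 9 were sought among 5818 genes with at least 5 RPKM throughout, by the root mean square difference of log2(RPKM + 0.1) after each gene was centred on its own mean. For XBP1 the nearest was C19orf10, an endoplasmic reticulum and secreted protein gene, with a difference of 0.05 where XBP1's own spread was 0.91. Its levels were 358 and 639 RPKM in Hep3B, 107 and 133 in HCCLM3 and 130.4 and 169 in MHCC97H. DDAH2 (0.07) and MPC2 (0.12), a subunit of the mitochondrial pyruvate carrier, came next. C19orf10 was also placed in the list of stress sensors and transducers when the lists were drawn up, and this placing does not tie it to XBP1.

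For SDF2L1 the nearest was SLC35B1, a nucleotide transporter of the endoplasmic reticulum membrane, with a difference of 0.02 against an own spread of 0.21. SLC35B1 stood at 23.3 and 34.6 RPKM in Hep3B, 24.8 and 29.4 in HCCLM3 and 23.1 and 31.1 in MHCC97H. RPL19, a ribosomal protein gene, was next at 0.03. For HSPA5 the nearest was RPN2, a subunit of the oligosaccharyltransferase, at 0.07 against an own spread of 0.14, with NRD1 and PPFIBP2 at 0.07 each. CALR was nearest to WBP1, DGCR2 and COG4 (0.05 each), PDIA6 to ECI2 (0.04), PDIA3 to CLPX (0.07), PDIA4 to TRIM27 (0.06), CANX to TM7SF3 (0.06) and DNAJB9 to NOL7 (0.07). Among the 9 genes themselves, DNAJB9 and SDF2L1 were each other's nearest (0.18), as were HSPA5 and PDIA4 (0.12) and CALR and PDIA6 (0.17), while XBP1 was 0.54 from the nearest, PDIA6. These differences describe 6 libraries from 3 lines.

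**Figure D4:**
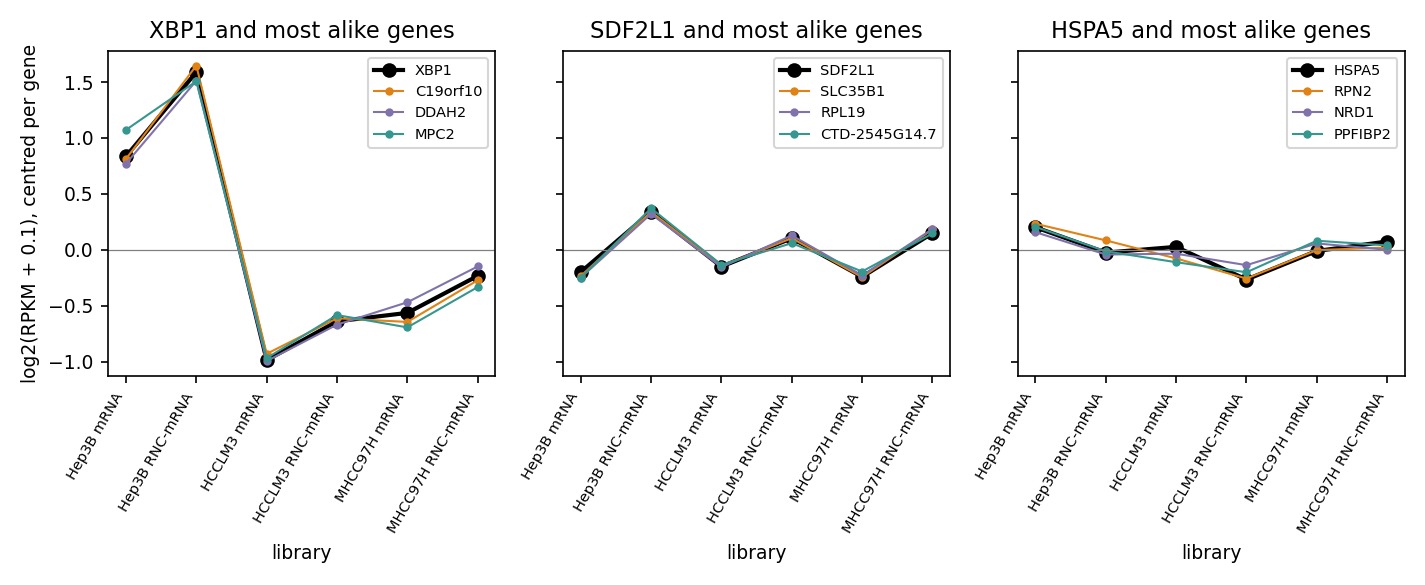
Log2(RPKM + 0.1), centred on each gene's mean over the 6 libraries, for XBP1, SDF2L1 and HSPA5 (black) and the 3 genes most like each of them (colours), with lines joining the values of a gene. XBP1 and C19orf10 differ by 0.05 (root mean square) and are high in both Hep3B libraries, while SDF2L1 and SLC35B1 differ by 0.02 and are higher in RNC-mRNA than in mRNA of each line.

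Other genes share the ERSE letters. Of 25 genes with the motif, 18 had a line, and 13 of these were not among the 10. At 1 RPKM in both fractions, 6 of the 13 in Hep3B and 8 in each other line had a median log2 ratio of RNC-mRNA to mRNA of 0.41, 0.15 and 0.11, beside -0.03, 0.17 and 0.16 for all genes. SERP1, which encodes a stress-associated protein of the translocon, stood at 27.2 and 42.4 RPKM in Hep3B, 29.0 and 44.0 in HCCLM3 and 31.8 and 45.2 in MHCC97H. CRELD2, a lumenal stress-induced protein gene, stood at 18.6 and 17.6, 17.5 and 14.7, and 16.4 and 14.7 RPKM. The motif was thus present both in genes with a ratio above 0 and in genes with one below 0 in all 3 lines.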

How the data were processed

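Polyadenylated mRNA and RNC-mRNA of Hep3B, HCCLM3 and MHCC97H were sequenced, 1 library from 3 pooled cultures each, per the labels and the design text; libraries were made with an NEBNext mRNA kit, per the labels' protocols. The authors deposited 2 values for each gene, a whole-number read count and its RPKM, per the file headers; no line held a count of 0. The submitters' processing notes name hg19 and edgeR; aligner, counter and strand handling: not given in the sources used here.

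From the deposited counts, RNC-mRNA was tested against mRNA with edgeR 4.0.16 (quasi-likelihood, TMM scaling, cell line as block, mean RPKM of at least 1, R 4.3.3), after a check on simulated data; its SE is the log2 ratio over the root of the F statistic. The line pairs the fractions, as the labels name it for both. From the deposited RPKM, ratios of (RPKM + 0.1) were formed; such folds understate those of low genes. Alternatives were DESeq2 1.42.0, other scalings, filters and pseudocounts, no block, and each line left out.

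The members, lists and tests were chosen with earlier results of these data known. Genes named from a list are among the 3 with the largest log2 ratio past 2-fold against Hep3B in both lines and both fractions; likeness names the 3 nearest genes or the first of them. SERP1 and CRELD2 were chosen after their values were seen. Promoters are RefSeq's (GRCh38.p14); 16677 of 19089 gene names matched a RefSeq symbol. Intervals are exact (95%, Poisson or Clopper-Pearson).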

Additional observations from a re-analysis of the deposited data

Results flagged for a closer look

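The RNC-mRNA to mRNA log2 ratio had opposite signs between lines, each with a counting interval that did not reach 0, in HSPA5 and CANX. HSPA5 had -0.23 in Hep3B, -0.29 in HCCLM3 and 0.084 in MHCC97H, the last turning negative with either rescaling. CANX had -0.10 in Hep3B, 0.23 in HCCLM3 and 0.26 in MHCC97H. Each line has 1 library per fraction, so the difference between lines was not tested. The ratio ranged over 0.38 between lines in HSPA5 and 0.35 in CANX. Both were below the median range of 0.46 for the 9662 genes at 1 RPKM or more in all libraries. How many of all genes had such opposite signs was not counted.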

How the results depend on the processing

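Over the 3 lines, 0 of the 9 genes were called higher and 0 lower by edgeR, and the same by DESeq2 and by edgeR with upper-quartile scaling, library totals alone, no expression filter, a filter at 5 RPKM or no replicate block. Leaving out a line gave 0 to 3 called higher and 0 to 4 called lower, the upper values without Hep3B. Of all genes, 3989 higher and 3881 lower were called then, against 8 and 316 over the 3 lines, and DESeq2 called 662 and 1300. Without the block 0 of 11905 genes were called, and with no filter 431 higher and 1443 lower of 19089. The log2 ratio of PDIA6 ran from -0.023 (without Hep3B) to 0.19 (without HCCLM3) when a line was left out. With no filter the edgeR ratios of all 9 genes rose by a like amount. HSPA5 went from -0.18 to -0.04, PDIA4 from -0.12 to 0.019, PDIA6 from 0.09 to 0.23 and DNAJB9 from 0.56 to 0.70. The cause was not tested. Within a line, 0 genes passed 2-fold in every setting. Between lines, HCCLM3 over Hep3B in RNC-mRNA went from 1 to 3 genes (median ratio) and 2 (upper quartile), since rescaling shifts all ratios of that pair, and the other pairs kept their counts. The filter at 5 RPKM left out DNAJB9 except between lines in RNC-mRNA. Single libraries limit all values between lines or fractions, and counting error those near 0, such as PDIA6 in HCCLM3 (log2 ratio of RNC-mRNA to mRNA between -0.01 and 0.06) and PDIA3 in MHCC97H (-0.02 to 0.02).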
